A study of Mus musculus with 6 samples.

Results

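Of 17270 mouse genes with a named probe on the array, 40 were higher in cultured astrocytes after 48 h of a GSK-3 inhibitor and were still higher 48 h after its removal. They were chosen on those measured values. A gene entered when 1 of its probes was well above background on all 6 arrays and its Ro mean exceeded the control mean by at least 1 on the log2 scale, that is 2-fold. Its washout mean also had to exceed the control mean by at least 0.8, with both washout arrays above both control arrays. Of the probes that passed, the one with the highest mean stood for the gene. For 5 genes a brighter probe, well above background on all 6 arrays, did not pass. A probe well above background on all 6 arrays existed for 12018 genes, and 407 of them met the Ro minimum. The 40 thus made up 9.83% of the genes raised at the end of treatment.

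The cells were cortical and striatal astrocytes from 1-day-old wild-type C57BL/6J mouse pups, grown in medium with 10% serum. All groups received cytosine arabinoside, an inhibitor of DNA synthesis, for 2 days before the experiment, and fewer than 1% of cells carried the microglial protein Iba1 at 12 days in culture by the labels. From 13 days in vitro, Ro cultures were given 1 µM of Ro3303544, a small-molecule inhibitor of GSK-3, for 48 h, and washout cultures were given the same and then kept for 48 h in growth medium. Control cultures are titled as control medium, while the treatment text describes an equal amount of the solvent DMSO. Each group had 2 cultures, which the labels do not tie to separate preparations, so that the spread between them may be technical.

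In cells that receive no Wnt signal, GSK-3 phosphorylates beta-catenin and so targets it for degradation. When it is blocked, beta-catenin accumulates, enters the nucleus and activates genes with TCF/LEF factors. Several of these genes encode inhibitors of the same pathway and so form a feedback loop. The kinase also has many targets outside Wnt signalling, among them transcription factors and metabolic enzymes.

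The share of the 41068 probes well above background was 60.4% to 65.2% by array, and replicates correlated across features at r = 0.992 to 0.996. All 12 listed astrocyte markers were well above background on the 6 arrays. In Ro 8 of them were lower than in control (22.7% of all features) and 3 higher (19.4% of all features), namely the gap junction genes Gjb6 (3.45) and Gja1 (0.70) and the glutamate transporter Slc1a2 (1.21). Their summed level was 139 to 147 against 196 to 208 in control and 195 to 206 in washout, in units of the array's 75th percentile. Control and Ro arrays lay on 1 slide and washout arrays on another, and the washout harvest came at 17 days in vitro against 15 for the other groups. Slide, age and washout therefore cannot be told apart in either washout comparison. Dim spots were raised in an area that covered 3.68% of the spots of washout 1, and the probes of Ahr, Cdsn, Egr1, Fbln1, Hlx and Rps15a lay in it. Values below are log2 processed intensities relative to the 75th percentile of their array, and they compare arrays for 1 probe, not genes with each other.

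Among the 40 genes the Ro mean exceeded the control mean by 1.03 to 8.23, with a median of 1.82. The washout mean exceeded it by 0.80 to 2.42, with a median of 1.1, against medians of 0.00 and -0.01 over all 20094 features tested. In limma 19.4% of all features were higher in Ro than in control and 4.14% were higher in washout than in control. The count of features called in either direction in washout against control, 2029, fell to 344 without Ro 2 and to 400 without control 2. The rule used both of these comparisons, so that no test of them is given for its genes. The share of the rise kept, which is washout minus control as a percent of Ro minus control on the log2 scale, ran from 23.7% to 186%, with a median of 54.9%. It was above 100% for 5 genes and at or under 50% for 18. The minimums bound this share: a gene that had gained 1 needed 80.0% to enter, while Sp5 needed 9.72%.

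**Figure D1:**
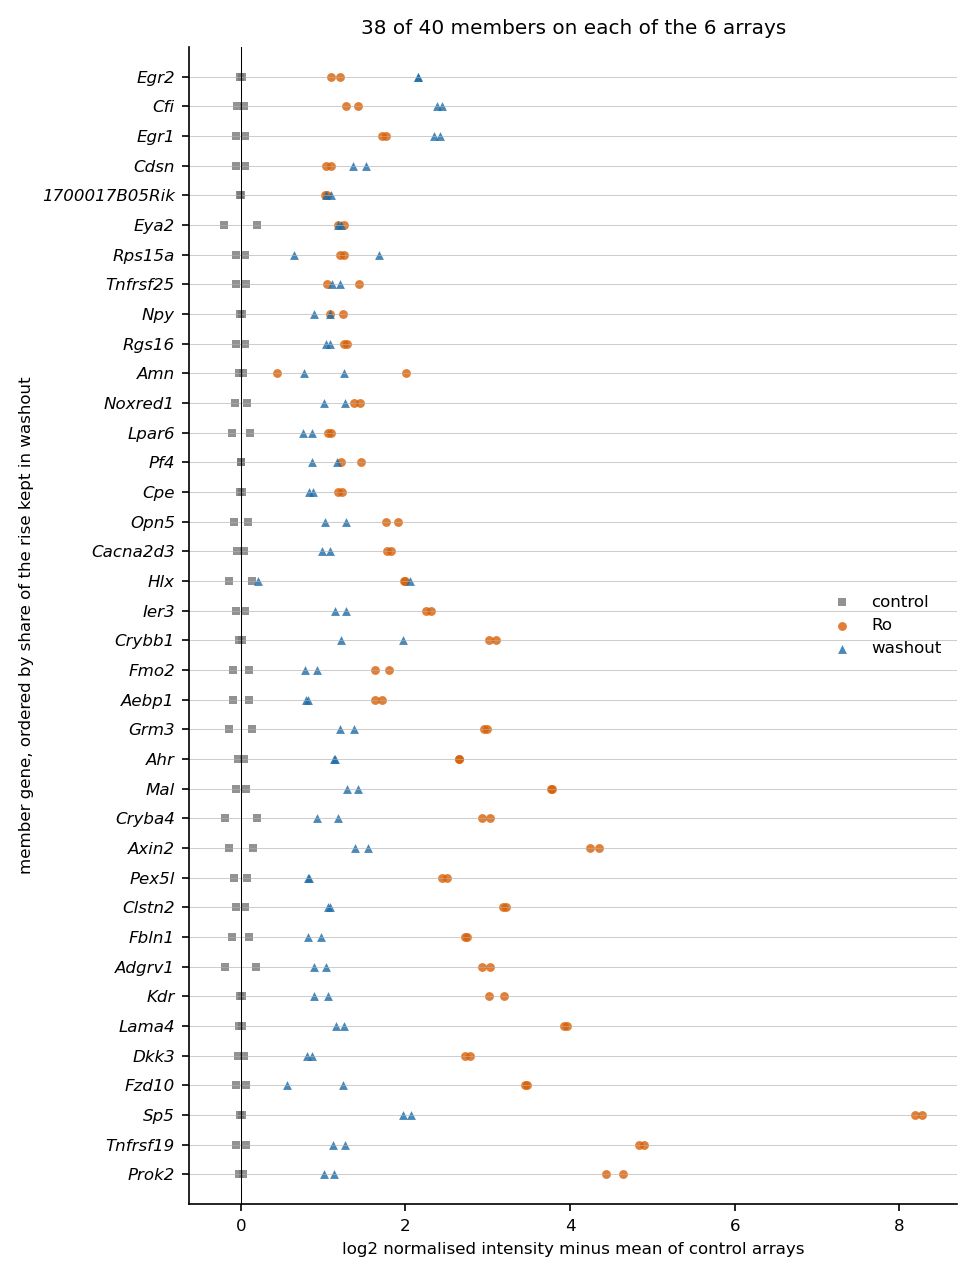
Log2 normalised intensity minus the mean of the control arrays (x axis) for 38 of the 40 genes (y axis, ordered by the share of the rise kept), with 1 point per array: control grey squares, Ro orange circles, washout blue triangles. Washout points pass Ro points at the top, for Egr2, Cfi, Egr1 and Cdsn, and lie far to the left of them at the bottom, for Sp5, Tnfrsf19 and Prok2.

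The other 367 genes raised in Ro had a median washout minus control of 0.07, and for 147 of them the washout mean was below the control mean. Just inside the washout minimum lay Aebp1 (0.80), Lpar6 (0.82) and Pex5l (0.83). Just outside it lay Acot1 (0.80 after rounding), Flrt3 (0.79) and Cdkn1c (0.77). Just inside the Ro minimum were 1700017B05Rik (1.03), Cdsn (1.07) and Lpar6 (1.07), and just outside it Cyp2c23 (0.98), Nat8f5 (0.94) and Traf4 (0.93).

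**Figure D2:**
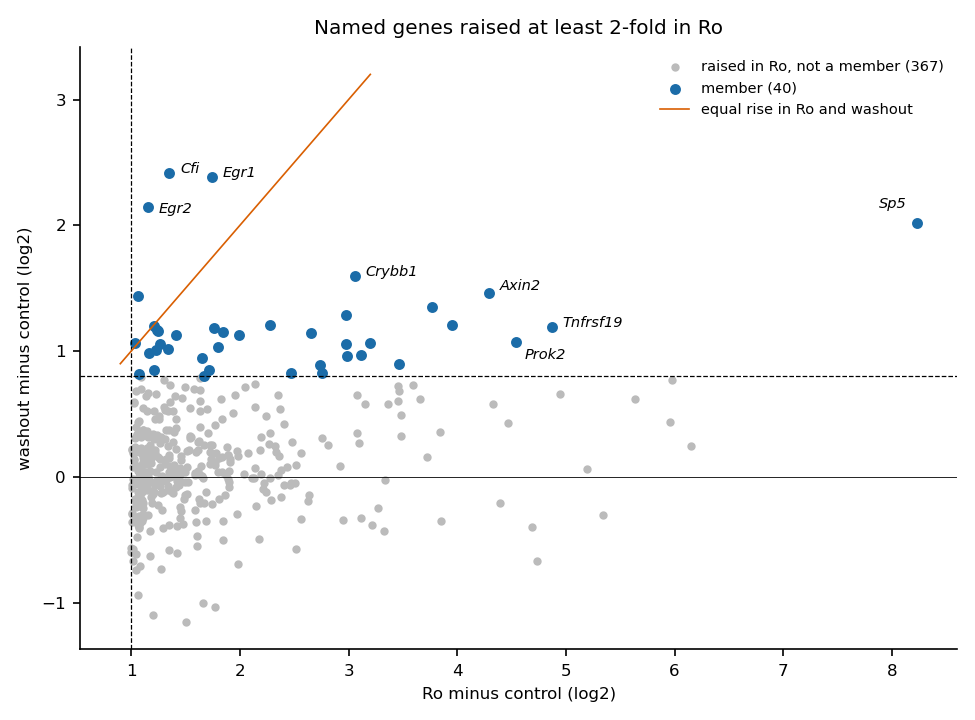
Ro minus control (x axis, log2) against washout minus control (y axis, log2) for the 407 named genes raised at least 2-fold in Ro, each on 1 probe. The 40 members (blue) lie above the dashed line at 0.8, the 367 others (grey) spread around a median of 0.07, and the orange line marks an equal rise in both groups.

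Washout was also compared with Ro directly, a contrast that the rule does not name. It is made of the same arrays, and the rule's minimums limit how far a member could fall or rise, so that the calls below describe these genes and are not independent of their choice. In limma 25 of the 40 fell from Ro to washout, against 20.1% of all features, and 4 rose, against 21.4% of all features. The remaining 11 did not pass the threshold. Both Ro arrays were above both washout arrays for 29 genes (38.2% of all features), and both washout arrays were above both Ro arrays for 4 (36.2% of all features). The median washout minus Ro was -0.86 over the members and -0.02 over all features. Since members were required to be high in Ro, their share of falls is not read as a property of the list. All adjusted p-values are from limma with Benjamini-Hochberg adjustment over 20094 features.

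**Figure D3:**
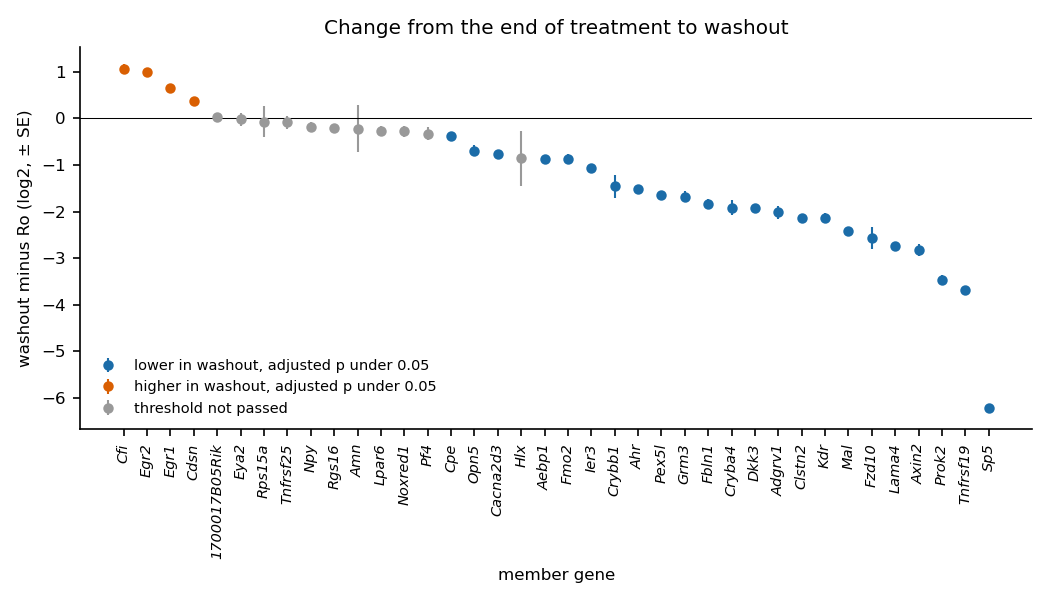
Washout minus Ro (y axis, log2, ± SE from limma, 2 arrays per group) for 38 of the 40 genes (x axis, in falling order). The 4 genes in orange were higher in washout, the 23 in blue were lower, and the 11 in grey did not pass an adjusted p of 0.05, with the widest error bars on Hlx and Amn.

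By role, 5 of the 40 genes were placed under Wnt signalling, with no count of such genes over the whole array. They were the transcription factor Sp5, the scaffold Axin2, the receptors Tnfrsf19 and Fzd10, and the secreted Dickkopf-family protein Dkk3. All 5 fell from Ro to washout (20.1% of all features) and kept 24.5% to 34.0% of their rise. The 10 genes with the largest rise in Ro, some of other roles, also all fell, with a median share kept of 30.9%. Sp5, a factor that is induced by Wnt and binds GC-rich sites, was at -4.19 and -4.22 in control, 3.98 and 4.07 in Ro, and -2.14 and -2.23 in washout. The washout arrays were the middle pair, 2.02 ± 0.08 above control (4.06-fold), where the rule required at least 0.8, and 74.0-fold below Ro (adjusted p = 3.0e-05). Axin2, which holds the complex that degrades beta-catenin together, was at -1.73 and -1.44 in control, 2.76 and 2.66 in Ro, and -0.20 and -0.04 in washout. The washout arrays were 1.46 ± 0.13 above control (2.75-fold), where the rule again required at least 0.8, and 7.11-fold below Ro (adjusted p = 0.00023).

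Tnfrsf19, also called Troy, is a receptor of the TNF receptor family. It was at 1.70 and 1.58 in control, 6.48 and 6.54 in Ro, and 2.90 and 2.76 in washout, and fell 12.8-fold from Ro (adjusted p = 8.3e-05). Fzd10 encodes a Frizzled receptor for Wnt ligands. On the probe used it was at -3.22 and -3.10 in control, 0.32 and 0.29 in Ro, and -1.92 and -2.60 in washout, and it fell 5.93-fold (adjusted p = 0.0011). Its brighter probe had washout 0.73 above control, under the minimum of 0.8. Dkk3, unlike the Dickkopf proteins that bind Lrp5 and Lrp6, is not a well-established Wnt antagonist. It was at 0.10 and 0.17 in control, 2.86 and 2.92 in Ro, and 0.94 and 1.00 in washout, a fall of 3.8-fold from Ro (adjusted p = 0.00018).

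Promoter sequences from RefSeq (GRCm38.p6) were read for the 3 of these genes that belong to a fixed list of Wnt targets, to show whether letters of the TCF/LEF motif stand near their starts. Each is the 250 bases before a transcription start, 5′ to 3′ on the strand of the gene, and capitals mark a match. The Sp5 window, chr2:70474673-70474922 on the plus strand, holds 2 TCF/LEF matches. The Tnfrsf19 window, chr14:61037988-61038237 on the minus strand, is that of the second of its starts and holds 1 TCF/LEF match and 1 E-box. The window of its other start is not printed and holds no match. The Axin2 window, chr11:108920099-108920348 on the plus strand, holds no match.
Sp5: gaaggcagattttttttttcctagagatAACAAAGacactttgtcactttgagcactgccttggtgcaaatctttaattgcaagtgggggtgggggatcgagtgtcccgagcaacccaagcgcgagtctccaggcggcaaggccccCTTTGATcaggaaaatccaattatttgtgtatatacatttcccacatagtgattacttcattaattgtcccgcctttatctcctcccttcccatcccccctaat
Tnfrsf19: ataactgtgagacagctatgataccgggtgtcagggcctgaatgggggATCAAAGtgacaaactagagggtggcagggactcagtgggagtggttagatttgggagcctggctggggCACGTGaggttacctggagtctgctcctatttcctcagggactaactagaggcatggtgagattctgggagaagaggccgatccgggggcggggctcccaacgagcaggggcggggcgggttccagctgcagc
Axin2: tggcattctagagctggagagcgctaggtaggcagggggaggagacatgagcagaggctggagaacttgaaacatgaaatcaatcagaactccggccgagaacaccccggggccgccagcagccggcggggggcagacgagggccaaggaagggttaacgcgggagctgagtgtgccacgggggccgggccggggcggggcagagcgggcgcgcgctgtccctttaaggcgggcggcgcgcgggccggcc
The motifs searched on both strands were TCF/LEF (CTTTG followed by AA, AT, TA or TT), the E-box CACGTG, the cyclic AMP element TGACGTCA, the AP-1 site TGANTCA and the antioxidant element TGACNNNGC. The RefSeq table held 38 windows for 29 of the 40 genes. A TCF/LEF match was in 5 of the 38 windows (13.2%), against 14.8% of all 32851 windows. The E-box was in 6 windows of 5 genes (15.8%, against 6.02% of all), and the antioxidant element in 8 windows of 6 genes (21.1%, against 10.2%). Windows of 1 gene can overlap, and 3 of those 8 belong to Egr2. The AP-1 site and the cyclic AMP element were each in 1 window (2.63%, against 6.75% and 1.55%). These are counts of letters in short windows, with no test.

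The wider list of Wnt targets held 31 measured genes, and the 28 that are not members are counted here, since the rule fixed the course of Sp5, Axin2 and Tnfrsf19. In Ro 20 of the 28 were higher than control and 4 lower, with 19.4% and 22.7% of all features called. From Ro to washout 18 fell and 5 rose, with 20.1% and 21.4% of all features called. In washout 5 were higher than control and 4 lower, with 4.14% and 5.96% of all features called. These last counts were 0 higher and 2 lower without control 1 in limma (7 and 11 at an unadjusted p under 0.05), and 0 and 1 without control 2 (7 and 10 unadjusted). They were 2 and 2 without either Ro array, 3 and 2 without washout 1, and 5 and 6 without washout 2. The share of all features was not counted at the unadjusted threshold. The 5 genes higher in washout were Rnf43 (0.77), Fgf9 (0.69), Bambi (0.67), Nkd1 (0.62) and Myc (0.50). Of these Myc, a growth-promoting transcription factor, was lower than control in Ro (-1.15, adjusted p = 0.00085), while the other 4 were higher in Ro too. The 4 genes lower in washout were Nkd2 (-1.81), Apcdd1 (-1.44), Dkk2 (-0.99) and Ephb3 (-0.46). Nkd2 and Apcdd1 had been 3.16 and 5.92 above control in Ro, and were well above background on 4 and 3 arrays. Rnf43, a ubiquitin ligase that removes Frizzled receptors, was 5.98 above control in Ro and missed the washout minimum narrowly. Lef1, a factor that binds beta-catenin, was 4.73 above control in Ro and -0.67 from control in washout, a difference that did not pass (adjusted p = 0.12).

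The other group of regulators held 6 genes of transcription and early response: Egr1, Egr2, Ier3, Hlx, Eya2 and Ahr. The zinc-finger factors Egr1 and Egr2, immediate early genes that respond to growth signals within minutes, rose further after removal. Egr1 was at 0.48 and 0.37 in control, 2.19 and 2.14 in Ro, and 2.85 and 2.77 in washout, higher than Ro by 0.65 ± 0.08 (1.56-fold, adjusted p = 0.0030). Egr2 was at -1.06 and -1.04, then 0.16 and 0.05, then 1.1 on both washout arrays, higher than Ro by 1.00 ± 0.07 (1.99-fold, adjusted p = 0.00068). For both genes the washout arrays lay above both Ro arrays (36.2% of all features), while the rule itself required washout above control. Egr1 lay in the raised area of washout 1, and washout 2, which has no such area, gave nearly the same value.

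Ier3, an early response gene linked to cell survival, went the other way. It was at 0.19 and 0.30 in control, 2.50 and 2.56 in Ro, and 1.39 and 1.52 in washout, a fall of 2.11-fold from Ro (adjusted p = 0.00081). Ahr, the ligand-activated aryl hydrocarbon receptor, was at -0.41 and -0.48 in control, 2.21 and 2.20 in Ro, and 0.70 and 0.69 in washout, falling 2.85-fold (adjusted p = 0.00023). Eya2, a transcriptional coactivator with phosphatase activity, was at -3.76 and -4.16 in control, -2.78 and -2.71 in Ro, and -2.78 and -2.74 in washout. Its Ro and washout arrays overlapped, with a difference of -0.02 ± 0.14 (adjusted p = 0.94).

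The homeobox factor Hlx rested on 1 array. It was at -4.73 and -5.01 in control, -2.87 and -2.89 in Ro, -2.82 on washout 1 and -4.66 on washout 2. Washout 1, where the probe lay in the raised area, was at the Ro level and washout 2 was close to control. Without washout 1 the gene fell from Ro (-1.78, adjusted p = 0.0044), and without washout 2 the difference was 0.06.

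Of 21 measured immediate early genes 18 were not members. Of the 18, 5 were higher and 6 lower in Ro than in control, with 19.4% and 22.7% of all features called. The 5 were 2 without control 2, 2 without Ro 2 and 0 without Ro 1 in limma (5 at an unadjusted p under 0.05). The 6 were 4 without control 2 or either Ro array. In washout 11 of the 18 were higher than control and 0 lower, with 4.14% and 5.96% of all features called, and 11 and 1 had an unadjusted p under 0.05 in limma. The 11 were 6 without control 1, 4 without control 2, 8 without washout 1 and 9 without any 1 of the other arrays. Relative to Ro, 12 rose and 2 fell, with 21.4% and 20.1% of all features called, and the falls were 1 without either Ro array. Several of these genes were higher in washout without having been called higher in Ro, such as Fos (-0.21 in Ro, 1.42 in washout), Junb (-0.04 and 1.14) and the mRNA decay factor Zfp36 (-0.10 and 1.19). The lists of NRF2, ATF4 and p53 targets, with 29, 24 and 17 measured genes, held no member. In washout against control 0, 2 and 2 of them were higher and 2, 4 and 2 lower, with 4.14% and 5.96% of all features called. At an unadjusted p under 0.05 in limma 0, 2 and 4 were higher and 6, 10 and 3 lower. The share of all features at that unadjusted threshold was not counted, so the unadjusted counts of any list cannot be set against it. No gene of these 3 lists was called higher when any 1 array was left out, and 0 to 3 genes of each list were called lower.

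Secreted proteins made up 5 of the genes. Cfi, complement factor I, a protease that cuts C3b and C4b, had the largest washout minus control of the 40. It was at -3.32 and -3.41 in control, -2.09 and -1.94 in Ro, and -0.92 and -0.98 in washout, higher than Ro by 1.07 ± 0.09 (2.10-fold, adjusted p = 0.00089). The neuropeptide-like ligand Prok2 kept the smallest share, 23.7%. It was at -3.37 and -3.42 in control, 1.04 and 1.25 in Ro, and -2.26 and -2.38 in washout, falling 11.1-fold (adjusted p = 0.00012), and its second probe had washout 1.30 above control.

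Cpe encodes carboxypeptidase E, which trims peptide hormones in secretory granules. It was at 6.49 and 6.46 in control, 7.66 and 7.71 in Ro, and 7.35 and 7.30 in washout, lower than Ro by 0.37 ± 0.07 (adjusted p = 0.012). Those arrays did not overlap, although the call did not hold when Ro 1 (adjusted p = 0.068) or Ro 2 (adjusted p = 0.094) was left out. The neuropeptide Npy was at -3.17 and -3.14 in control, -2.07 and -1.91 in Ro, and -2.07 and -2.27 in washout. The chemokine Pf4 was at -2.02 on both control arrays, -0.80 and -0.56 in Ro, and -0.85 and -1.16 in washout. Neither Npy (-0.18 ± 0.10, adjusted p = 0.22) nor Pf4 (-0.33 ± 0.14, adjusted p = 0.12) passed the test of washout against Ro.

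Receptors, channels and signalling proteins formed the largest group, with 11 genes. Of these 8 fell from Ro (20.1% of all features) and 3 did not pass. Grm3, a metabotropic glutamate receptor found on astrocytes, was at -2.30 and -2.58 in control, 0.52 and 0.55 in Ro, and -1.06 and -1.23 in washout. It fell 3.21-fold (adjusted p = 0.00063) and still lay 2.45-fold above control. Kdr, the VEGF receptor of endothelial cells, was at -1.75 and -1.77 in control, 1.26 and 1.44 in Ro, and -0.87 and -0.70 in washout, a fall of 4.40-fold (adjusted p = 0.00025). Both Ro arrays were above both washout arrays for Grm3 and for Kdr (38.2% of all features).

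Kdr is also a marker of endothelial cells, and 3 of the 8 listed markers could be tested. The 2 others, Flt1 (-0.38 and -0.54) and Emcn (-1.77 and -1.56), were lower than control in Ro and in washout, and Emcn was well above background on 2 arrays. Pecam1 and Tie1 were not well above background on any array. The summed level of the 3 measured markers, Kdr included, was 1.01 to 1.11 in control, 2.99 to 3.24 in Ro and 1.03 to 1.14 in washout, in units of the array's 75th percentile.

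Clstn2, a calsyntenin of synaptic membranes, fell 4.39-fold from Ro (adjusted p = 0.00017), and Adgrv1, a very large adhesion G protein-coupled receptor, fell 4.06-fold (adjusted p = 0.00064). A second Adgrv1 probe, well above background on all arrays, had washout 0.45 above control, under the minimum. Cacna2d3, a subunit of voltage-gated calcium channels, was at -1.43 and -1.51 in control, 0.36 and 0.30 in Ro, and -0.39 and -0.48 in washout. Pex5l, a protein that regulates HCN channels in neurons, fell 3.12-fold (adjusted p = 0.00028).

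The genes of this group that did not pass were Rgs16, Lpar6 and Tnfrsf25. Rgs16, which shortens G protein signals, was at 2.38 and 2.49 in control, 3.69 and 3.73 in Ro, and 3.52 and 3.47 in washout, with -0.21 ± 0.07 between washout and Ro (adjusted p = 0.077). Lpar6, a lysophosphatidic acid receptor, was at 0.87 and 1.09 in control, 2.04 and 2.07 in Ro, and 1.85 and 1.74 in washout (-0.26 ± 0.10, adjusted p = 0.10). For both, the washout arrays were below both Ro arrays by a small margin, and with each array centred on its median the calls became adjusted p = 0.029 and 0.028. Tnfrsf25, a receptor with a death domain, differed by -0.08 ± 0.14 (adjusted p = 0.68), with overlapping arrays.

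Matrix, adhesion and membrane proteins numbered 6. Lama4, a laminin chain of vascular basement membranes, was at -2.68 and -2.72 in control, 1.23 and 1.26 in Ro, and -1.45 and -1.54 in washout. It fell 6.69-fold (adjusted p = 0.00010), and 1 further probe that passed the rule had 1.29 between washout and control. Mal, a membrane protein of myelin and of apical transport, was at -2.05 and -2.17 in control, 1.67 and 1.66 in Ro, and -0.82 and -0.69 in washout, a fall of 5.33-fold (adjusted p = 0.00017). Fbln1, an extracellular matrix fibulin, fell 3.58-fold (adjusted p = 0.00034), and Aebp1, a secreted collagen-binding protein, 1.83-fold (adjusted p = 0.0020).

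Cdsn, an adhesive protein of skin corneodesmosomes, was the remaining gene above Ro after washout. It was at -2.57 and -2.46 in control, -1.48 and -1.42 in Ro, and -1.0 and -1.15 in washout, a difference from Ro of 0.37 ± 0.09 (adjusted p = 0.025). Its probe lay in the raised area of washout 1, and without that array the difference was 0.30 and did not pass (adjusted p = 0.082). It was also lost without either Ro array (adjusted p = 0.13 and 0.10). With probes of raised areas left out, Egr1 and Cdsn among them, 2 rather than 4 members were above Ro. Amn, a membrane protein of vitamin B12 uptake, had the widest Ro pair, at -3.78 and -2.22, against -4.25 and -4.20 in control and -2.97 and -3.46 in washout. Its washout arrays lay between the Ro arrays.

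Some markers of other cell types moved in the same samples as Mal, Fbln1 and Aebp1. Of 6 measured oligodendrocyte markers, 2 were higher than control in Ro (19.4% of all features) and 2 in washout (4.14% of all features). Cldn11 was among them (0.71 and 0.59), and Mbp fell in Ro (-1.11). The summed level of the 6 was 7.08 to 7.85 in control, 8.63 to 10.4 in Ro and 8.47 to 10.2 in washout, while Mog was not well above background on any array. That sum is mostly Cnp, at 2.74 and 2.55 in control against -0.46 and -0.30 for Mag, the next highest. Cnp itself did not pass in Ro (0.42, adjusted p = 0.091) or washout (0.38, adjusted p = 0.20). The part of oligodendrocytes in the Mal result was not tested. Of 11 measured meningeal fibroblast markers 7 were lower in Ro than in control (22.7% of all features) and 2 higher (19.4% of all features). In washout 9 were lower than control (5.96% of all features). The summed level of the 11 was 21.9 to 27.2 in control, 19.0 to 19.9 in Ro and 13.2 to 13.7 in washout. Their part in the Fbln1 and Aebp1 results was not tested.

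The crystallins Crybb1 and Cryba4, structural proteins of the eye lens, are direct neighbours on chromosome 5 with no protein-coding gene between them in RefSeq (GRCm38.p6). Crybb1 was at -3.49 and -3.45 in control, -0.45 and -0.37 in Ro, and -1.50 and -2.25 in washout. Cryba4 was at -4.38 and -3.99 in control, -1.26 and -1.16 in Ro, and -3.00 and -3.26 in washout. Both genes were thus about equally far above control in Ro (3.06 and 2.98) and intermediate in washout. Crybb1 fell 2.76-fold (adjusted p = 0.0081, and 0.053 without Ro 2) and Cryba4 3.78-fold (adjusted p = 0.00099). The second Crybb1 probe had 3.26 and 1.56 in place of 3.06 and 1.59.

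Crybb1 and Pf4 are known to be expressed in microglia and macrophages, and the part of such cells in their values was not tested. In Ro 5 of the 12 measured microglial markers were lower than control (22.7% of all features). Tmem119 (0.93) was the 1 marker higher in Ro (19.4% of all features). In washout against control none was called in limma, with 4.14% of all features higher and 5.96% lower. At an unadjusted p under 0.05 in limma 0 were higher and 3 lower, with no share of all features counted at that threshold. P2ry12, a microglial receptor, was not well above background on any array. Their summed level was 28.3 to 29.1 in control, 25.7 to 30.8 in Ro and 28.7 to 30.8 in washout. In these bulk cultures more or fewer cells of a type and more or less RNA per cell cannot be told apart.

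Among the remaining genes were Fmo2, Noxred1, 1700017B05Rik and Rps15a. Fmo2, a flavin monooxygenase, fell 1.82-fold (adjusted p = 0.0039, and 0.91 with the mean of its probes). The second Fmo2 probe was well above background on 3 arrays and lay in the raised area of washout 1. It was at -2.65 on washout 1 and -5.99 on washout 2. Noxred1, annotated as an NADP-dependent oxidoreductase, differed from Ro by -0.28 ± 0.12 (adjusted p = 0.12). For 1700017B05Rik the arrays were at -0.22 and -0.21, then 0.81 and 0.83, then 0.88 and 0.82, so that Ro and washout were level (0.03 ± 0.07, adjusted p = 0.77).

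Second probes showed how far the values depend on the probe. Of the 40 genes 15 had further probes, and 12 such probes, 1 for each of 12 genes, were well above background on all 6 arrays. The rule was also passed by 6 of them, among them those for Crybb1, Fbln1, Lama4, Mal and Prok2. Those for Adgrv1, Cpe, Fzd10 and Lpar6 showed differences in the same direction but missed a minimum. For Opn5 and Rps15a the brighter probe did not show the pattern. The brighter probe of Opn5, a photopigment of the opsin family, had -0.19 in Ro and 0.32 in washout relative to control, where the probe used had 1.84 and 1.15. On the probe used Opn5 fell from Ro by 0.69 (adjusted p = 0.010), a call lost when Ro 2 was left out (adjusted p = 0.069) or its probes were averaged (adjusted p = 0.55). The brighter probe of Rps15a, a protein of the small ribosomal subunit, was at 5.28 and 5.47 in control, 6.05 on both Ro arrays, and 5.36 and 5.31 in washout. The Rps15a probe used was at -4.00 and -3.89 in control, -2.69 and -2.74 in Ro, and -2.27 and -3.30 in washout, and lay in the raised area of washout 1. Ribosomal protein genes have near-identical processed copies, so that its probes are uncertain in any case. The entries of Opn5 and Rps15a describe single probes, not the transcripts as a whole.

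**Figure D4:**
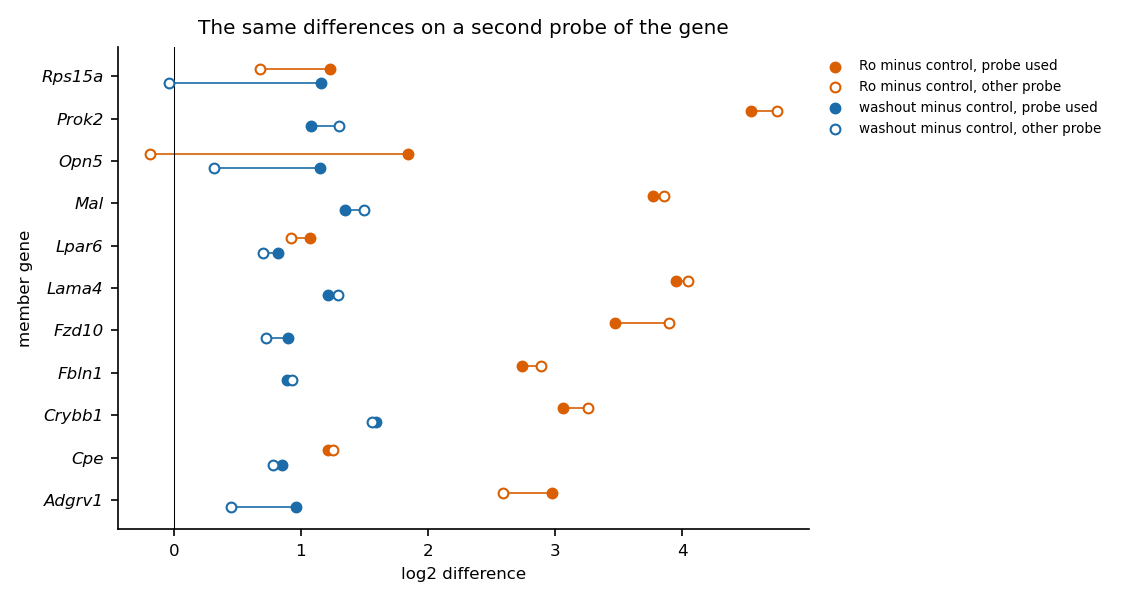
Ro minus control (orange) and washout minus control (blue), on the log2 scale (x axis), for the probe used (filled) and another probe of the same gene (open), for 11 genes (y axis) whose other probe was well above background on all arrays. Open and filled points lie close together for Crybb1, Mal and Lama4 and far apart for Opn5 and Rps15a.

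The pairs of arrays of a group were close for most of the 40 genes. The median gap between replicates was 0.11 in control, 0.07 in Ro and 0.13 in washout, against 0.11, 0.08 and 0.13 over all features. The widest were those of Hlx (1.84, washout) and Amn (1.55, Ro). In washout the gap also exceeded 0.5 for Crybb1, Fzd10 and Rps15a.

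Genes outside the list with the most similar course were sought by the Euclidean distance, over the 6 arrays and after subtraction of the control mean, to the median course of the 40. The nearest were Flrt3 (distance 0.59), Amhr2 (0.64), St6galnac5 (0.69), Eya1 (0.71) and Sema6a (0.75). All 5 missed the washout minimum, with 0.79, 0.74, 0.69, 0.62 and 0.71 above control. The median member lay at a distance of 1.23, from 0.14 for Opn5 to 9.08 for Sp5, so that these 5 lay nearer to the median course than the median member did.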

How the data were processed

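Per the labels, RNA was labelled with Cy3 for one-colour Agilent arrays. The deposited scanner files hold intensity values that the authors made with Agilent Feature Extraction, version 10.1 per the submitters' processing notes and 10.5.1.1 per the file headers, with background subtracted per array but no scaling across arrays. A deposited table covering the series gives a linear ratio per probe, with medians of 0.872 to 0.987, whose centring and scaling the authors leave unstated. After log2 and centring of each probe it correlated with the scanner files at r = 0.993 to 0.997, so that it follows the same direction, and it served as an alternative.

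Faulty spots removed 106 of the 41174 probes that are not controls. Probes were named by accession through RefSeq (25036 probes, 61.0%). Log2 intensities were reduced by each array's 75th percentile, and features were kept when 1 or more groups had both arrays well above background, with the brightest probe per gene and 5 further probes of members. Comparisons used limma 3.58.1 (R 4.3.3) over all 6 arrays (1 mean per group, 3 residual and 2.09 prior degrees of freedom), with an adjusted p of 0.05 as the threshold and errors given as standard errors. The smallest p an exact permutation test allows with 2 against 2 is 0.333. The fit was tested on simulated data for washout against Ro, with 200 changed genes among 20094. It called 80.1% of those changed 2-fold and 95.8% of those changed 4-fold, and 6.51% of its calls were false. The simulation changed far fewer genes than the 8334 features called in the data, so these rates are not those of the calls above.

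Members, lists, roles and the rule for naming genes were chosen with earlier results of these data known: members that led a ranking by either difference or by the share kept, those near a minimum, and those in a list, with others by role. Alternatives changed the background correction, scaling, values, filter, probe, variance model, replicate block, raised areas and minimums, and left out each array in turn. The pathway lists were refitted without each array and counted without members, alternatives chosen after seeing the data. The number of arrays limits the precision. Single values of 2 members and of 1 marker gene are not reported here, and the counts include them. Plots were made in Python 3.11.15 (matplotlib 3.10.9).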

Additional observations from a re-analysis of the deposited data

How the results depend on the processing

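The number of genes in the list moved with its minimums and with the signal used. It held 4 genes with both minimums at 1.5 and 120 at 0.58, which include all 40. With the median signal, corrected by normexp with an offset of 50, in place of the processed signal it held 19, all of them among the 40. That setting changed the signal, the background correction and the offset together. Without raised areas 2 members were above Ro in place of 4. The number of features called in washout against control was 134 with no filter on dim probes and 771 with the replicate block. When each array was left out in turn it ranged from 344 to 2198, the calls of Ro against control from 4608 to 8584, and those of washout against Ro from 4838 to 8105.

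Of 634 values of washout minus Ro for single members under the alternatives, 592 kept direction and side of the threshold, 22 lost their call, 9 gained one and 11 changed sign. None of the 6 genes whose value changed sign had passed the test with all arrays and the reported setting. They were 0.01 for Eya2 with normexp, -0.06 and -0.08 for 1700017B05Rik with median centring and the authors' values, and some values with 1 array left out. Over those fits washout minus Ro ran from -0.27 to 0.11 for Tnfrsf25, -0.05 to 0.02 for Eya2, -0.99 to 0.56 for Amn, -0.58 to 0.44 for Rps15a and -1.78 to 0.06 for Hlx, and it was -0.01 for 1700017B05Rik without washout 1. Rps15a without washout 2 (0.44) passed the threshold in the new direction (adjusted p = 0.031). The cause was not tested.

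The replicate numbers did not pair the arrays (correlations of deviations -0.12, 0.08 and -0.11). With the replicate block 25 members were lower in washout than in Ro and 3 higher. With the numbers of the Ro arrays exchanged, an alternative chosen after seeing the data, these were 25 and 4.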

Other observations

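A further 23 probes passed the rule but had no gene name in the reference table and are not described. Another 26 named genes met both minimums with no overlap between washout and control arrays but were not well above background on every array, 22 of them on neither control array. The rule left out Lin7a and AI593442 for overlapping arrays, both seen after their values were known. Lin7a was at -4.12 and -4.28 in control, -0.94 and -1.20 in Ro, and -4.36 and -2.15 in washout. AI593442 was at -4.14 and -4.70 in control, -2.08 and -2.16 in Ro, and -2.57 and -4.56 in washout, with its probe in the raised area of washout 1. For both genes a single washout array was far above the other.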
